A study of Mus musculus with 6 samples.

Results

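The strands of mmu-miR-199a, mmu-miR-199b and mmu-miR-214 were chosen by name, taking every row of the deposited table whose mature miRNA carries 1 of these 3 stems, whichever arm or locus it came from. They made up 6 of the 535 mature miRNAs in the table, on 11 of its 792 rows and 4 hairpins: miR-199a-5p, miR-199a-3p, miR-199b-5p, miR-199b-3p, miR-214-5p and miR-214-3p. Where a mature miRNA stood on several rows, its highest count in each library was kept. A miRNA was tested where its counts summed to more than 10, which 525 miRNAs did, all 6 strands among them. miR-199a-3p and miR-199b-3p had the same count in every library, so the 6 strands gave 5 distinct profiles.

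Small RNA was sequenced from wild-type CD1 mouse kidney at embryonic day 15.5, in 3 libraries of cells enriched for nephron progenitors (MNP) and 3 libraries of whole kidney (MWK). The progenitors had been obtained by limited digestion and magnetic depletion. The depleted cells bore CD140a (Pdgfra, on stromal cells), CD105 (endoglin, on endothelial cells), Epcam (on epithelial cells) and Ter119 (on red cells). The study reports minor contamination of the isolate by renal stroma. Whole kidney was what remained of the kidneys after that digestion, and its RNA was purified with a Mini kit where the progenitor RNA was purified with a Micro kit, so isolation, kit and group cannot be told apart. After keeping 1 value per mature miRNA the libraries held 393951, 436112 and 333850 counts (MNP1, MNP2 and MNP6) and 349241, 360221 and 355848 counts (MWK1, MWK2 and MWK6). No pair of libraries in a group agreed within counting noise. Chi-square over its degrees of freedom was 40.5 to 108 in MNP and 4.67 to 15.7 in MWK. That check covers counting error only, so it cannot show that the libraries came from separate RNA. Each was counted as a separate sample because the study describes 3 biological replicates. The comparison asks which miRNAs differ in level between the progenitors and the organ they come from.

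miRNAs are short RNAs cut from hairpin precursors, and either arm of the hairpin, 5p or 3p, can be loaded into the silencing complex, where bases 2 to 8, the seed, pair with target mRNAs. miR-199a and miR-214 are known from mesenchymal tissues, where the noncoding RNA Dnm3os, transcribed antisense to the dynamin gene Dnm3, is the precursor of a miR-199a and a miR-214 hairpin and is needed for normal skeletal growth. Both families have been studied in fibrosis, including that of the adult kidney. Nephron progenitors are themselves mesenchymal and lie beside stromal mesenchyme, so a comparison with whole kidney sets a mesenchymal isolate against a mixture of mesenchyme, epithelium, endothelium and blood.

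The 4 hairpins lie at 3 dynamin genes, on the strand opposite to the gene in each case (mm10, the build the authors aligned to; sequences from RefSeq for GRCm38.p6, the same assembly; genes from GENCODE vM21). Mir199a-2 (chr1:162217814-162217923, plus strand) and Mir214 (chr1:162223368-162223477, plus strand) are separated by 5444 bases, and an exon of Dnm3os at chr1:162217623-162225550 holds both of them whole, within an intron of Dnm3. Mir199a-1 (chr9:21496495-21496564, minus strand) lies in an intron of Dnm2, and Mir199b (chr2:32318460-32318569, plus strand) in an intron of Dnm1. The hairpins are shown because 3 of them share a 3p strand, which decides what the counts can tell apart. Capitals mark the mature strands that the RefSeq table lists on each hairpin.
Mir199a-1: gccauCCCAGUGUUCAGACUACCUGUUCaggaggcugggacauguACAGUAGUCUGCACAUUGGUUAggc
Mir199a-2: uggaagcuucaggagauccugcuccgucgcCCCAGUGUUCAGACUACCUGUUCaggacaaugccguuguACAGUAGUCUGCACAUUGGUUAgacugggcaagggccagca
Mir199b: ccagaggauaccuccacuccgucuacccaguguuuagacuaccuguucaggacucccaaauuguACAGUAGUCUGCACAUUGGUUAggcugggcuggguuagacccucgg
Mir214: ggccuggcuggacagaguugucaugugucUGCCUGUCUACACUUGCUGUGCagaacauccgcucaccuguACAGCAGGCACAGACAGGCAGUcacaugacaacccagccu

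The RefSeq table held a mature sequence for 5 of the 6 strands. They are given with the seed in capitals, because strands with the same seed can pair with the same sites in mRNAs.
miR-199a-5p: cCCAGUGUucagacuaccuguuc
miR-199a-3p: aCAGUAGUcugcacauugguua
miR-199b-3p: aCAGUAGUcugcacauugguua
miR-214-5p: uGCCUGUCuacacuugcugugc
miR-214-3p: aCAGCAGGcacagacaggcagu
miR-199a-3p and miR-199b-3p are the same 22 bases, so their equal counts are a single measurement written under 2 names. Among the 1679 mature names of the RefSeq table, no other name carried the seed CAGUAGU of these strands or GCCUGUC of miR-214-5p. The seed CAGCAGG of miR-214-3p was shared with miR-761, which was not analysed here.

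miR-199 was among the abundant miRNAs of both groups and miR-214 was far below it. In CPM (counts divided by the library's total times its TMM factor, which allows for differences in composition, so that these values are not shares of a library), miR-199a-3p was at 8183 ± 1318 in MNP and 6992 ± 411 in MWK (mean ± SD, n = 3 libraries here and below), rank 23 and rank 25 of the 525 miRNAs. miR-199a-5p followed at 7951 ± 2573 and 6030 ± 233, rank 25 and rank 27. In MNP these neighbouring strands differed by less than the spread between libraries, while in MWK the 3p strand was higher in each of the 3 libraries. miR-199b-5p came next with 3285 ± 333 in MNP and 1900.5 ± 146 in MWK, rank 44 and rank 64, and lay below both other strands in every library. miR-214-3p was at 465 ± 136 and 412 ± 80.1 CPM (rank 123 and rank 135) and miR-214-5p at 340 ± 116 and 280 ± 48.2 CPM (rank 142 and rank 161). The means of these miR-214 strands lay within about a standard deviation of each other in MNP, although the 3p strand was the higher of the pair in all 6 libraries. The strands are 22 or 23 bases long where RefSeq lists them, which leaves out miR-199b-5p. Neither the part of length in this order nor how efficiently each strand was ligated and amplified was tested.

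Of the 6 strands, 1 passed the threshold, an adjusted p of 0.05 (quasi-likelihood F test of edgeR, Benjamini-Hochberg over all 525 miRNAs): miR-199b-5p, which was higher in MNP. That is 16.7% of the strands, beside 36.6% of all tested miRNAs called in either direction and 19.4% called higher in MNP. The share called was thus close to that of miRNAs called higher in MNP, and below that called in either direction. Whether the strands differ in this from miRNAs at large was not tested. All 6 log2 fold changes (MNP over MWK) were above 0, with a median of 0.25, or 0.28 over the 5 distinct profiles, where 49.1% of all tested miRNAs were above 0 and their median was -0.011. Without MNP6 the log2 fold change of miR-214-3p was below 0 and that of miR-214-5p was 0.035, so both values depend on that library. The value of miR-214-3p also depends on MWK1, without which it was 0.027. In bulk samples such as these, fewer cells of a type and less of the RNA in each cell cannot be told apart.

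**Figure D1:**
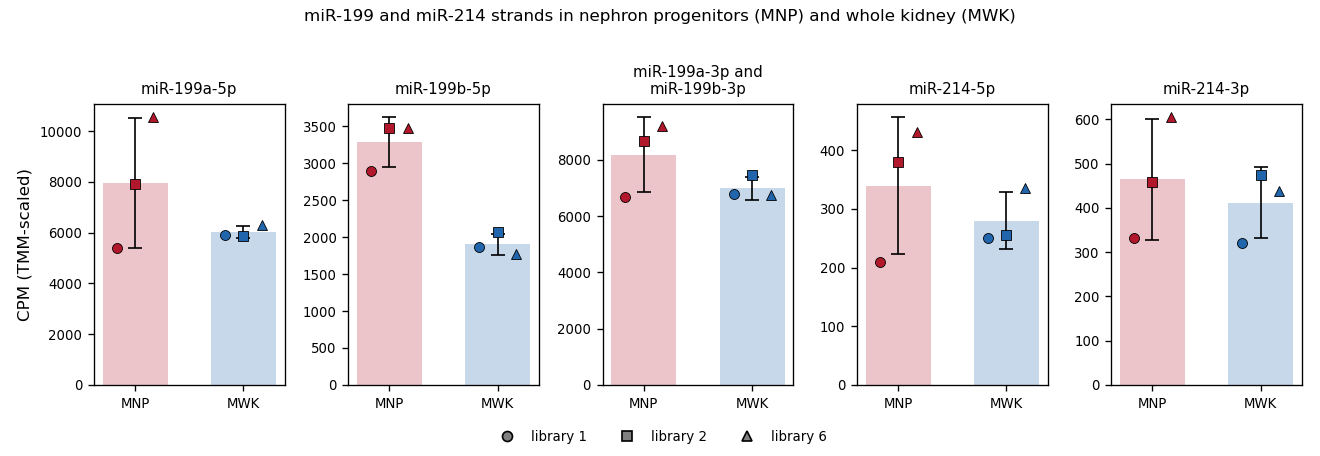
Level of each distinct strand in CPM (TMM-scaled, vertical axis from 0 in each panel) in nephron progenitors (MNP, red) and whole kidney (MWK, blue); bars are means, error bars are SD over 3 libraries and each point is a library. On this scale only miR-199b-5p (as shares of library counts also the 3p strand) has its lowest MNP library (2900 CPM) above its highest MWK library (2062 CPM), and MNP1 is the lowest MNP library in every panel.

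miR-199b-5p, the 5p strand of the hairpin within Dnm1, was at 2900, 3475 and 3479 CPM in MNP1, MNP2 and MNP6 and at 1861, 2062 and 1778 CPM in MWK1, MWK2 and MWK6. Every MNP library lay above every MWK library, which was so, in this direction, for 23.4% of the 525 miRNAs and for none of the other 5 strands in CPM. The values rest on 1178, 1595 and 1324 counts in MNP and 619, 655 and 609 in MWK. miR-199b-5p was 1.73-fold higher in MNP (log2 fold change 0.79, SE 0.16, edgeR adjusted p = 0.0018), which placed it at number 85 of 525 when miRNAs were ordered by p. Leaving out any 1 library kept the call, with log2 fold changes from 0.71 to 0.88. miR-199b-5p and miR-199a-5p are close relatives in sequence, so the division of reads between them rests on the authors' counting and is uncertain to that extent.

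miR-199a-5p, which comes from hairpins at Dnm2 and within Dnm3os and is known as a regulator of caveolin-1 in fibroblasts, was at 5389, 7927 and 10535 CPM in the MNP libraries 1, 2 and 6 and at 5909, 5882 and 6299 CPM in the MWK libraries. The MWK libraries were close together, while MNP6 was 1.95 times MNP1 and MNP1 lay below all of MWK, so the groups overlapped. They also overlapped as shares of library counts, where MNP1 (0.556%) lay between the MWK libraries. The log2 fold change was 0.40 (SE 0.21, edgeR adjusted p = 0.16). The value rests on MNP1 and MNP6: the log2 fold change was 0.62 (adjusted p = 0.0019) without MNP1 and 0.10 (adjusted p = 0.68) without MNP6. Over all 17 alternatives the adjusted p ran from 0.0019 to 0.69. The 2 hairpins of this strand cannot be told apart from its counts, since its rows on mir-199a-1 and mir-199a-2 differed by at most 2 counts in any library.

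The shared 3p strand of miR-199a and miR-199b, for which the growth kinase mTOR and the receptor Met are known targets, was at 6692, 8664 and 9192 CPM in MNP1, MNP2 and MNP6 and at 6775, 7466 and 6734 CPM in MWK1, MWK2 and MWK6. MNP2 and MNP6 lay above all MWK libraries, and MNP1 lay below all of them. As a share of library counts MNP1 was instead above them, at 0.690% against 0.645%, 0.658% and 0.648%, and the groups did not overlap, which on that scale was so for 27.8% of all tested miRNAs in this direction. The log2 fold change was 0.23 (SE 0.16, edgeR adjusted p = 0.31). It was 0.36 (adjusted p = 0.039) without MNP1, 0.099 (adjusted p = 0.63) without MNP6 and 0.068 (adjusted p = 0.76) in the 4 numbered libraries with a replicate block. With library totals in place of TMM it was 0.44 with an adjusted p of 0.048, a scaling that also raised the median of all tested miRNAs by 0.20. Over the 17 alternatives the adjusted p ran from 0.039 to 0.76. Without MNP1, 4 of the 6 strands (66.7%) were called higher in MNP, with the shared strand counted under both names, beside 21.4% of the 510 miRNAs then tested. With library totals, 3 of the 6 were called higher, beside 23.0% of all tested.

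Under each of its names this 3p strand stood on 3 rows of the table, 1 per hairpin, and those rows were not equal. On mir-199a-1 and mir-199b it had 2571, 3805 and 3347 counts in the MNP libraries and 2167, 2272 and 2217 in the MWK libraries, the same on both hairpins. On mir-199a-2 the counts were higher by 147, 172 and 151 in MNP and by 86, 99 and 90 in MWK. That excess was 5.72%, 4.52% and 4.51% of the lower row in MNP and 3.97%, 4.36% and 4.06% in MWK, so mir-199a-2 had the higher row in all 6 libraries. Directly after the 3p strand, mir-199a-2 shares 1 base with each of the other hairpins, while mir-199a-1 and mir-199b share 3, at which point the mir-199a-1 hairpin ends. Whether reads longer than the mature strand make up the excess was not tested. The part of the common count that each hairpin gave cannot be told apart.

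miR-214-3p was at 332, 457 and 604 CPM in MNP1, MNP2 and MNP6 and at 322, 475 and 438 CPM in MWK1, MWK2 and MWK6. The groups overlapped through most of their range, and only MNP6 lay above all of MWK. The log2 fold change was 0.17 (SE 0.25, edgeR adjusted p = 0.65), and without MNP6 it was -0.091, so its sign rests on that library. Without MWK1 it was 0.027. miR-214-5p, the opposite arm of the hairpin, was at 209, 379 and 431 CPM in MNP and at 250 (MWK1), 255 (MWK2) and 336 (MWK6) CPM. MNP1 was again below all of MWK and the other MNP libraries above it, and the log2 fold change of 0.28 (SE 0.27, edgeR adjusted p = 0.50) did not pass. It was 0.035 (adjusted p = 0.93) without MNP6 and 0.53 (adjusted p = 0.061) without MNP1. With 81 to 174 counts for miR-214-5p and 107 to 230 for miR-214-3p in a library, these strands rest on fewer reads than those of miR-199.

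**Figure D2:**
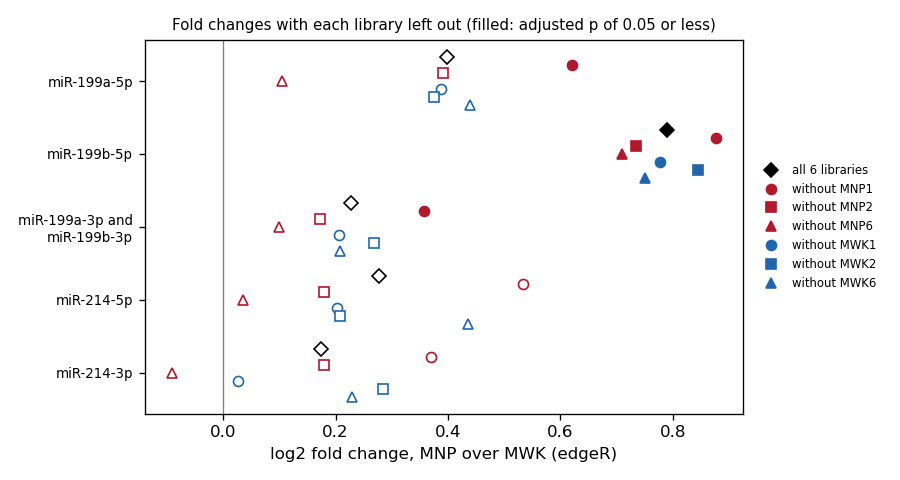
Log2 fold change of each distinct strand (MNP over MWK, edgeR, horizontal axis) with all 6 libraries (diamond) and with each library left out (red for MNP, blue for MWK; shapes for libraries 1, 2 and 6); filled symbols have an adjusted p of 0.05 or less. miR-199b-5p is filled throughout, from 0.71 to 0.88, miR-199a-5p and the shared 3p strand are filled only without MNP1, and miR-214-3p falls below 0 only without MNP6.

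The MNP libraries stood in the same order for every strand. MNP1 had the lowest and MNP6 the highest level of the MNP libraries for all 5 distinct profiles, an order found for 53 of the 203 miRNAs with a mean of at least 50 counts (26.1%). The coefficient of variation in MNP was 34.1% for miR-214-5p, 32.4% for miR-199a-5p, 29.3% for miR-214-3p, 16.1% for the shared 3p strand and 10.1% for miR-199b-5p, beside a median of 18.8% over those 203 miRNAs. In MWK it was 17.2%, 3.87%, 19.5%, 5.88% and 7.70% for the same strands, beside a median of 9.76%. miR-199b-5p and the shared 3p strand thus varied less in MNP than the median miRNA, while miR-199a-5p and both miR-214 strands varied more.

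Summed over the 5 distinct profiles, the strands made up 1.60% (MNP1), 2.2% (MNP2) and 2.76% (MNP6) of all counts in progenitors and 1.44% (MWK1), 1.42% (MWK2) and 1.5% (MWK6) in whole kidney. As shares of library counts the groups did not overlap, and the ratio of their means was 1.5 (log2 0.59). On that scale 27.8% of all tested miRNAs, taken singly, did not overlap in this direction. Library totals also raised the median log2 fold change of all tested miRNAs by 0.20. After TMM scaling the sums were 20223 ± 4399 CPM in MNP and 15614 ± 513 CPM in MWK, a ratio of 1.30 (log2 0.37), and MNP1 lay within the range of MWK, so the overlap depends on the scaling. Without MNP6 this log2 ratio was 0.22. The miR-199 strands gave nearly all of this, with 19418 ± 4151 and 14922 ± 443 CPM, also a ratio of 1.30. The miR-214 strands summed to 805 ± 248 and 692 ± 107 CPM, a ratio of 1.16. These sums are a description and carry no test.

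Ratios of strands within a library do not depend on scaling. A two-sided exact permutation test, for which the smallest p with 3 against 3 libraries is 0.1, was run on 8 such ratios, and adjusted p are over all 8. Of these, 4 were planned, and the other 4 were chosen after the values were seen and are given as values with no p. The 3p strand of miR-199 was set against the sum of both 5p strands, because 3 hairpins share it. In the order MNP1, MNP2, MNP6 that ratio was 0.807, 0.760 and 0.656, and in the order MWK1, MWK2, MWK6 it was 0.872, 0.940 and 0.834, so that every MNP library was below every MWK library. The log2 difference was -0.25 (exact p = 0.1, or 0.2 adjusted over the 8 ratios), and it was -0.17 without MNP6 and -0.32 without MNP1. For miR-214 the 3p to 5p ratio was 1.59, 1.21 and 1.40 in MNP and 1.29, 1.86 and 1.30 in MWK, with overlapping groups and a log2 difference of -0.07 (exact p = 0.8, adjusted 0.8). It was above 0 without MNP2 (0.028) and without MWK2 (0.10).

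Further ratios set the 5p strand of mir-199b beside that of the 2 mir-199a hairpins. The ratio of miR-199b-5p to miR-199a-5p was 0.538, 0.438 and 0.330 in the MNP libraries 1, 2 and 6, against 0.315, 0.351 and 0.282 in the MWK libraries 1, 2 and 6. MNP1 and MNP2 lay above all of MWK, and MNP6, where miR-199a-5p was highest, lay within it. Against the shared 3p strand, miR-199b-5p was at 0.433, 0.401 and 0.379 in MNP and 0.275, 0.276 and 0.264 in MWK, a 1.49-fold difference with no overlap. miR-199a-5p against the same strand was at 0.805, 0.915 and 1.15 in MNP and 0.872, 0.788 and 0.935 in MWK, and these overlapped. The miR-214 strands relative to the miR-199 strands were at 0.0362, 0.0417 and 0.0446 in MNP and 0.0393, 0.0474 and 0.0522 in MWK, which also overlapped.

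The planned comparison with another mesenchymal miRNA used miR-143-3p. This strand, a marker of smooth muscle and pericytes and the most abundant strand of its list, was lower in MNP (log2 fold change -1.33, SE 0.15, edgeR adjusted p = 1.5e-05). miR-199a-3p relative to miR-143-3p was 0.315, 0.308 and 0.359 in the MNP libraries and 0.112, 0.105 and 0.118 in the MWK libraries. The ratio was 2.92-fold higher in MNP, without overlap (log2 difference 1.55, exact p = 0.1, adjusted 0.2). For miR-214-3p the ratio to miR-143-3p was 0.0156, 0.0163 and 0.0236 in MNP and 0.00533, 0.00670 and 0.00767 in MWK. It was 2.80-fold higher in MNP, again without overlap (log2 difference 1.48, exact p = 0.1, adjusted 0.2). Both ratios carry the lower level of miR-143-3p in MNP. The log2 fold changes of miR-199a-3p (0.23) and miR-214-3p (0.17) were small beside it, and neither strand was called. A strand equal in both groups would also have a higher ratio to miR-143-3p in MNP, so these ratios show nothing particular to miR-199 or miR-214.

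Strands that mark other cell types were counted by list, beside 19.4% of all tested miRNAs called higher in MNP and 17.1% called lower. In the smooth muscle and pericyte list (miR-143 and miR-145a), 2 of 4 strands were lower in MNP and 0 higher, with a median log2 fold change of -0.81. The opposite arm of miR-143-3p, miR-143-5p, was not called (log2 fold change -0.12, edgeR adjusted p = 0.81). Nor was miR-145a-3p (-0.30, edgeR adjusted p = 0.31). Summed over the list, the level was 21799, 28640 and 26087 CPM in the MNP libraries 1, 2 and 6 and 61206, 72036 and 57807 CPM in the MWK libraries 1, 2 and 6. In the list associated with fibroblasts and matrix (miR-21a and miR-29), 2 of 4 were higher, miR-29a-3p (1.83) and miR-29b-3p (1.63), and 1 was lower, miR-21a-5p (log2 fold change -1.05, edgeR adjusted p = 0.00038), with a median of 0.29. miR-21a-5p carried nearly all of the summed level, which was 21984, 25795 and 16248 CPM in MNP and 45461, 48977 and 37575 CPM in MWK. Strands of this list thus differed in both directions.

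Epithelial, endothelial and red cells were among those targeted by the depletion, and their lists were lower in the isolate than in whole kidney. Depletion and limited digestion cannot be told apart in this. All 7 epithelial strands (of miR-141, miR-429 and the miR-200 stems a, b and c) were lower in MNP, with a median log2 fold change of -6.62, or -6.46 with miR-141-3p and miR-200b-5p, at 0 in every MNP library, set to 3 counts per library. Their summed level was 227, 386 and 89.3 CPM in MNP and 23975, 25414 and 21834 CPM in MWK, led by miR-200a-3p. Both endothelial strands, of miR-126a, were lower (median -5.18), at 419, 595 and 578 CPM against 20132, 21311 and 18150 CPM, led by miR-126a-3p. The epithelial and endothelial sums in MNP were 0.985% and 2.67% of those in MWK. All 3 erythroid strands were lower (median -2.50), at 234, 161 and 81.5 CPM against 1131, 1121 and 572 CPM, led by miR-451a.

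The remaining lists were low in both groups, and each had 1 strand called, too few to set apart from the 19.4% of all tested miRNAs called higher. Of 4 leukocyte strands, 1 was higher in MNP, miR-223-5p, which had 0 counts in all MWK libraries. The median was 0.86, or 0.74 with that strand set to 3 counts per library in MWK, and the summed level was 123, 142 and 68.3 CPM in MNP and 78.2, 78.7 and 61.3 CPM in MWK, led by miR-142a-3p. Of 3 strands of skeletal and cardiac muscle, 1 was higher, miR-206-3p (log2 fold change 4.81, edgeR adjusted p = 0.00015), with a median of 1.06 and summed levels of 300.4, 438 and 131 CPM in MNP and 66.2, 113 and 61.3 CPM in MWK. MNP6 had the highest miR-199 and miR-214 levels and was the lowest MNP library for the fibroblast, epithelial, erythroid, leukocyte and muscle lists. MNP1, which had the lowest miR-199 and miR-214 levels in MNP, was the lowest for the smooth muscle and pericyte list and the endothelial list. The part of these cell types in the levels of miR-199 and miR-214 was not tested. The name mesenchymal could not be tested for these strands, since both groups hold mesenchymal cells.

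The miRNAs most like these strands were found by the root mean square difference of log2 CPM, each profile centred on its own mean over the 6 libraries, among 197 other miRNAs with a mean of at least 50 counts. For miR-199a-3p they were miR-222-3p (0.118), miR-744-5p (0.123), miR-652-3p (0.147), miR-152-3p (0.155) and miR-181b-5p (0.167), where the median miRNA was at 0.406. The other strands lay at 0.178 (miR-199a-5p), 0.190 (miR-214-3p), 0.240 (miR-214-5p) and 0.291 (miR-199b-5p) from it, farther than these 5. For miR-214-3p they were miR-222-3p (0.147), miR-221-3p (0.148), miR-744-5p (0.230), miR-152-5p (0.260) and miR-455-5p (0.269), with a median of 0.498, and miR-199a-3p (0.190), miR-199a-5p (0.194) and miR-214-5p (0.208) lay between the second and the third of them. miR-222-3p was thus nearest to both, and miR-199b-5p, at 0.393, was the strand farthest from miR-214-3p. With miR-199b-5p as reference, a choice made after its values were seen, the nearest were miR-210-3p (0.0994), miR-669c-5p (0.163), miR-335-5p (0.176), miR-676-3p (0.185) and miR-181a-5p (0.188), with a median of 0.538. None of these 5 was among the nearest to the shared 3p strand or to miR-214-3p.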

How the data were processed

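Per the study's methods and the submitters' processing notes, the authors trimmed adapters, aligned reads to mm10 with Bowtie2 2.2.3, counted known miRBase miRNAs with miRDeep2 and tested them with DESeq2 1.18.1. The authors deposited expected counts, not normalized, for each pair of mature miRNA and precursor. The tests had been designed for whole counts, so the 3 rows with fractions were rounded.

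The highest count over rows of a mature name was kept, miRNAs with more than 10 counts in sum were scaled by TMM and tested with edgeR 4.0.16 (R 4.3.3), and SE is the log2 fold change over the square root of F. DESeq2 1.42.0 and limma 3.58.1 served as alternatives, beside other scalings, filters, row handling, a replicate block and leaving out each library. Ratios used exact permutation tests (scipy 1.17.1), and profiles were compared as log2 CPM (prior count 2). Figures were drawn with matplotlib 3.10.9. The steps were tested on simulated data.

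Columns MNP6 and MWK6 match no single sample name and were used as unnumbered libraries of their groups. Embryos of 3 litters were used, and the sources do not say whether equal numbers mark the same litter. Reads carry no molecular identifiers, so floors of 3 counts cover counting error only. Named miRNAs are all strands of the 3 stems, the most abundant strand of each marker list and the 5 nearest profiles. Other list strands named beside a small count were chosen after their values were seen. miR-143-3p was the planned comparison strand. Members and lists were chosen with earlier results of these data known.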

Additional observations from a re-analysis of the deposited data

How the results depend on the processing

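The call of miR-199b-5p held under all 17 alternatives, with log2 fold changes from 0.67 to 1.00 and adjusted p from 7.4e-05 to 0.034. The number of strands called was 3 with library totals and from 1 to 4 with a library left out (4 without MNP1), and it was 1 in the other fits. The log2 fold change of the shared 3p strand of miR-199 was 0.44 with library totals and from 0.099 to 0.36 with a library left out, and that of miR-199a-5p ran from 0.10 to 0.62, the highest in each case without MNP1 and the lowest without MNP6. miR-214-3p was at -0.034 with the replicate block, at -0.031 in the same 4 numbered libraries with no replicate block, and from -0.091 to 0.37 with a library left out. The cause was not tested. miR-214-5p ran from 0.035 (without MNP6) to 0.53 (without MNP1) and was called under none of the alternatives (adjusted p from 0.061 to 0.93), nor was miR-214-3p (0.21 to 0.96).

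The log2 3p to 5p ratio of miR-214 ran from -0.17 to 0.10 with a library left out. The log2 ratio of the summed level ran from 0.22 to 0.59 over its alternatives. It, the 3p to 5p ratio of miR-199 and the ratios to miR-143-3p kept their direction. Of all miRNAs, 192 passed the threshold, and 120 did so among those with more than 10 counts in every library, where fewer were tested. The replicate differences of the numbered libraries correlated at 0.039 across miRNAs. From 4 numbered libraries this cannot show whether the numbers pair the samples. Whole kidney was what the digestion left, so pairing is possible, and the main fit did not use it. The replicate block changed no call of these strands. The miR-214 strands rest on 81 to 230 counts in a library and the miR-199 strands on 609 to 4009.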
